A study of Mus musculus with 8 samples.

Results

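The 8 genes Hmgcs1, Idi1, Fdft1, Sqle, Lss, Cyp51, Srebf2 and Insig1 encode 6 enzymes of cholesterol synthesis and 2 proteins that control the pathway. They were taken by gene symbol from the deposited expression tables of the series alone, and all 8 are among the 11367 genes measured (12 of 21301 transcripts). None of the 8 encodes a lipoprotein receptor. The series holds 8 RNA sequencing libraries of ventricular cardiomyocytes from adult C57BL/6 mice. Of these, 4 came from cells kept for 24 hours in M199 that CCR2+ cardiac macrophages had conditioned, and 4 from cells kept for 24 hours in M199 without that conditioning, the control medium. The macrophages were sorted by their green fluorescence from hearts of Ccr2gfp/+ mice, 4 weeks after transverse aortic constriction (TAC), an operation that overloads the left ventricle, and were never added to the cardiomyocytes. Both media contained (–)-Blebbistatin, which blocks myosin, with the supplements ITS (insulin, transferrin and selenium) and CD lipid, so cells of both groups were supplied with lipid. Serum is named in the methods for the medium of the macrophages and not for the control medium, so serum and macrophage products cannot be told apart here. The labels do not tie the libraries to animals, and p values therefore cover only the variation among these 8 libraries, part of which could be technical.

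Values are FPKM, fragment numbers divided by transcript length and library size, which carry no read totals, so depth is unknown and each value is read against the variation within its group. Markers of cardiomyocytes were abundant, with sums over 10 genes of 4778 to 10883 FPKM in conditioned medium and of 8404 to 12993 FPKM in control medium. Conditioned-medium replicate 4 had the lowest sum, and 63.0% of its FPKM came from mitochondrially encoded genes, against 30.2% to 40.7% in the other 7 libraries. Since these are bulk samples, fewer cells of a type and less RNA per cell cannot be told apart.

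Cholesterol is built from acetyl-CoA along the mevalonate pathway. HMG-CoA synthase acts early, isopentenyl diphosphate isomerase supplies the isoprenoid units, squalene synthase joins farnesyl units into squalene, squalene epoxidase and lanosterol synthase oxidize and close the ring, and lanosterol demethylase opens the path to cholesterol. SREBP-2, a transcription factor held in the endoplasmic reticulum membrane, is released when sterols are scarce and switches these genes on, while INSIG proteins keep it in place when sterols are plentiful. Cells can also take up cholesterol from lipoproteins, and in the heart, as elsewhere, synthesis and uptake are regulated together.

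The promoters of the pathway carry sites for SREBP, the sterol regulatory elements, usually beside boxes for the partner factor NF-Y, and the sequences next to the start sites are shown because these genes are known for a shared control. RefSeq (GRCm38.p6) gave a promoter window of 300 bases, 250 before and 50 after the start, for 6 of the 8 genes, Sqle and Fdft1 not among them. Both strands were searched for the letters TCACNCCAC of the sterol regulatory element, for its core CACNCCAC, which lies within the longer form, for the NF-Y box CCAAT and for the GC box GGGCGG. The full element was found in the window of Hmgcs1, 137 bases before the start, and in no other of the 6, against 1.24% of all 32851 windows of this length. The core was found in Hmgcs1 and Insig1, against 6.24% of all windows. A CCAAT box lay in all 6 windows, against 37.4% of all windows, with 4 in Hmgcs1, 2 in Idi1 and 1 in each other gene. A GC box also lay in all 6, against 35.7% of all windows and 63.4% of the windows of genes in the table. These are matches of letters only. The bases before the first annotated start are given below for Hmgcs1 (chr13:119690101-119690350), Srebf2 (chr15:82147019-82147265) and Insig1 (chr5:28071162-28071362), all on the plus strand, with matches to the sterol element and to CCAAT or its complement in capitals. The core of Insig1, 9 bases before its RefSeq start, lies outside the stretch shown.
Hmgcs1: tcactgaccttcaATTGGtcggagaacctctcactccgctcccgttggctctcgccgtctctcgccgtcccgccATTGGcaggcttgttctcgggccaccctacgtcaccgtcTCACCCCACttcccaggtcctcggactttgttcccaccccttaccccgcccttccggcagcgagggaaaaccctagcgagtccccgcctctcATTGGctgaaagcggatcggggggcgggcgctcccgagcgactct
Srebf2: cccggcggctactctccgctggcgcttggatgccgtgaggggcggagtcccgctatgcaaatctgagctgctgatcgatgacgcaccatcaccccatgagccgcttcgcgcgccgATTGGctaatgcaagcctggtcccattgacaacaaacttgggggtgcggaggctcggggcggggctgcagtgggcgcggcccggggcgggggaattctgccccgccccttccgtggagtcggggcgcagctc
Insig1: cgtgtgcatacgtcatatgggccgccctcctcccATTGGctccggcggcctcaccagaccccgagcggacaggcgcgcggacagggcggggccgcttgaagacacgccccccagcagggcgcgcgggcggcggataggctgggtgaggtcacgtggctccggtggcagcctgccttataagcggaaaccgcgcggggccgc

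None of the 8 sterol genes rose or fell in cardiomyocytes exposed to CCR2+ macrophage–conditioned medium at an adjusted p under 0.05 with limma, where 0.554% of all genes passed in either direction. Idi1 alone was higher at an unadjusted p under 0.05 in the same limma test, which 8.78% of all genes met, and none was lower, which 0.845% met. An F test was also run for each gene. Its covariate was each library's sum of non-zero log2(FPKM + 1) values up to their 75th percentile, which is not read depth. The F test passed none of the 8 after adjustment, as it passed 0.0% of all genes. Unadjusted, it passed 2 of the 8, Idi1 and Cyp51, and 17.3% of all genes. In no gene of the 8 did the groups separate, whereas the 4 conditioned-medium libraries lay above all control libraries in 5.08% of all genes and below them in 1.46%. The log2 fold changes, conditioned over control medium on the log2(FPKM + 1) scale, were between -0.17 and 0.44. They were positive for 5 genes and negative for 3, with a median of 0.23, against 0.02 over all genes, of which 53.9% were positive. On this scale a fold change understates the difference of a gene with low FPKM, such as Lss.

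**Figure D1:**
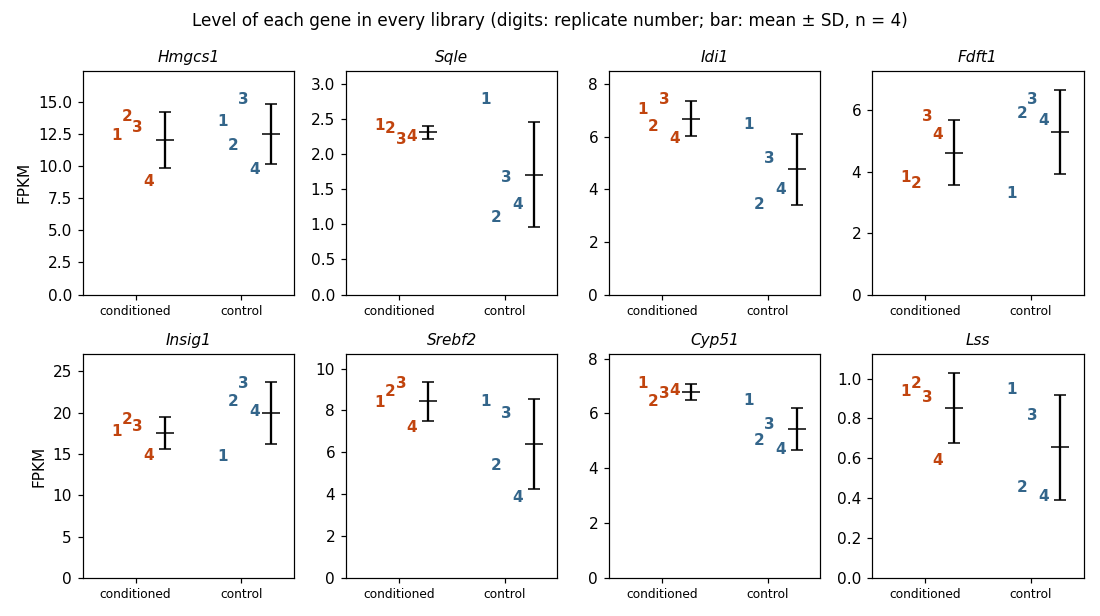
FPKM of each of the 8 sterol genes in the conditioned-medium libraries (orange digits, left) and the control libraries (blue digits, right), with the replicate number as the plotting sign and the mean ± SD as a bar (n = 4 each). The groups overlap in every panel, and Sqle lies between 2.22 and 2.42 FPKM in conditioned medium but between 1.10 and 2.77 FPKM in control medium.

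Hmgcs1 (ENSMUSG00000093930.2, chr13:119690379-119708260, plus strand, GRCm38) encodes cytosolic HMG-CoA synthase, which makes the substrate of the rate-limiting step of cholesterol synthesis. It was at 12.4, 13.8, 13.0 and 8.82 FPKM in conditioned-medium replicates 1 to 4, against 13.5, 11.6, 15.1 and 9.69 FPKM in control replicates 1 to 4. The lowest value of all 8 libraries was in conditioned medium and the highest in control medium, and the ranges covered each other almost fully. Its log2 fold change was -0.05 (standard error 0.19, 95% interval -0.48 to 0.37, limma adjusted p = 0.943). The sign depended on single libraries, being 0.08 without conditioned-medium replicate 4 and 0.04 without control replicate 3.

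Idi1 (ENSMUSG00000058258.14, chr13:8885501-8892451, plus strand) encodes the isomerase that converts isopentenyl diphosphate into dimethylallyl diphosphate, the primer of isoprenoid chains. It was at 7.05, 6.39, 7.41 and 5.94 FPKM in conditioned medium, against 6.46, 3.43, 5.18 and 3.996 FPKM in control medium. Control replicate 1 lay within the conditioned-medium range and the other 3 control libraries lay below it. With a log2 fold change of 0.44 (standard error 0.19, 95% interval 0.03 to 0.86, unadjusted p = 0.0385, limma adjusted p = 0.492), it had the largest difference of the 8 genes. Limma with array weights, which gave conditioned-medium replicate 4 a weight of 0.0826, was the only setting of those tried in which a gene of the 8 passed after adjustment (Idi1, 0.51, adjusted p = 0.0355, with 8.21% of all genes called), and over all settings the adjusted p of Idi1 was 0.0355 to 0.977.

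Fdft1 (ENSMUSG00000021273.10, chr14:63145150-63179578, minus strand) encodes squalene synthase, the first enzyme committed to sterols. It was at 3.81, 3.63, 5.81 and 5.21 FPKM in conditioned medium, against 3.29, 5.88, 6.33 and 5.68 FPKM in control medium. The libraries of each group were spread widely, and the lowest value was that of control replicate 1. Its log2 fold change was -0.15 (95% interval -0.62 to 0.31, limma adjusted p = 0.842). In the GENCODE M21 annotation 774 of the 4227 exon bases of Fdft1 are also exon bases of Ctsb on the other strand, a cathepsin gene at 115 ± 23.7 FPKM in conditioned medium and 110 ± 13.3 FPKM in control medium (SD, n = 4 each). Whether strand was used in counting is not stated, so reads from this stretch may have been given to either gene.

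Sqle (ENSMUSG00000022351.14, chr15:59315077-59331192, plus strand) encodes squalene epoxidase, which adds the first oxygen to the sterol skeleton. It was at 2.42, 2.36, 2.22 and 2.26 FPKM in conditioned medium, against 2.77, 1.10, 1.67 and 1.29 FPKM in control medium. The conditioned-medium libraries were nearly equal, and the control libraries were both the highest and the lowest. Its log2 fold change was 0.33 (95% interval -0.07 to 0.73, limma adjusted p = 0.611). The coefficient of variation was 3.97% in conditioned medium and 44.0% in control medium.

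Lss (ENSMUSG00000033105.12, chr10:76531588-76557138, plus strand) encodes lanosterol synthase, which folds oxidosqualene into the 4-ring sterol nucleus. It was at 0.935, 0.977, 0.907 and 0.591 FPKM in conditioned medium, against 0.943, 0.452, 0.814 and 0.410 FPKM in control medium. The first 3 conditioned-medium libraries and control replicates 1 and 3 were close to each other, while conditioned-medium replicate 4 and control replicates 2 and 4 were lower. The estimated log2 fold change was 0.17 (95% interval -0.14 to 0.48, limma adjusted p = 0.743).

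Cyp51 (ENSMUSG00000001467.5, chr5:4081145-4104746, minus strand) encodes lanosterol 14-alpha-demethylase, a cytochrome P450 that acts on the first cyclic sterol. It was at 7.10, 6.43, 6.72 and 6.85 FPKM in conditioned medium, against 6.46, 5.02, 5.59 and 4.69 FPKM in control medium. Only control replicate 1 reached the conditioned-medium range, and it exceeded the lowest conditioned-medium library by a small margin. Between media the log2 fold change was 0.28 (95% interval -0.06 to 0.62, limma adjusted p = 0.607), with a coefficient of variation of 4.14% in conditioned medium and 14.3% in control medium. Of its exon bases, 166 of 4415 are shared with Akap9 on the other strand.

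Srebf2 (ENSMUSG00000022463.7, chr15:82147266-82205376, plus strand) encodes SREBP-2, the transcription factor of the pathway, and the microRNA gene Mir33 lies within it. It was at 8.37, 8.90, 9.30 and 7.17 FPKM in conditioned medium, against 8.45, 5.39, 7.86 and 3.83 FPKM in control medium. Control replicates 1 and 3 lay within the conditioned-medium range and replicates 2 and 4 below it. The log2 fold change was 0.40 (95% interval -0.08 to 0.88, limma adjusted p = 0.605), and 0.21 without control replicate 4.

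Insig1 (ENSMUSG00000045294.11, chr5:28071363-28078662, plus strand) encodes the membrane protein that retains the SREBP complex in the endoplasmic reticulum and is itself an SREBP target. It was at 17.7, 19.2, 18.3 and 14.8 FPKM in conditioned medium, against 14.7, 21.4, 23.6 and 20.1 FPKM in control medium. Control replicates 2 to 4 lay above every conditioned-medium library and control replicate 1 below every one of them. The log2 fold change was -0.17 (95% interval -0.57 to 0.23, limma adjusted p = 0.805). Set beside the promoters, Hmgcs1 with the full element had a difference of -0.05 and Insig1 with only the core -0.17. The 4 genes with neither match had 0.44 (Idi1), 0.40 (Srebf2), 0.28 (Cyp51) and 0.17 (Lss). None of these passed the limma test after adjustment. Only exact letters were searched, so a window without a match may still hold a sterol element. With 1 gene for each kind of match, a link between matches and differences was not tested.

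In order of mean level, which FPKM allows between genes since it is scaled by length, Insig1 came first in both media at 17.5 ± 1.93 FPKM in conditioned medium and 19.9 ± 3.75 FPKM in control medium (SD, n = 4 each). Hmgcs1 followed at 12.004 ± 2.20 and Srebf2 at 8.44 ± 0.926 FPKM in conditioned medium, against 12.5 ± 2.35 and 6.38 ± 2.15 FPKM in control medium (SD, n = 4 each). Cyp51 at 6.77, Idi1 at 6.70 and Fdft1 at 4.61 FPKM came next in conditioned medium. In control medium the order of these was Cyp51 at 5.44, Fdft1 at 5.29 and Idi1 at 4.77 FPKM, with overlapping ranges. Sqle at 2.31 and Lss at 0.852 FPKM were lowest in conditioned medium, as in control medium at 1.71 and 0.655 FPKM. Neighbours whose ranges overlapped were Hmgcs1 with Srebf2 and Cyp51 with Idi1 in conditioned medium, and Insig1 with Hmgcs1, Srebf2 with Cyp51, Cyp51 with Fdft1 and Fdft1 with Idi1 in control medium. Over all 8 libraries Insig1 stood above 82.6% of the genes in the table, Idi1 above 55.6% and Lss above 7.76%.

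In 5 of the 8 genes, Idi1, Sqle, Srebf2, Cyp51 and Lss, the lowest pair of libraries was control replicates 2 and 4. The mean deviation of the 8 genes from their mean over all libraries was 0.09, 0.10, 0.17 and -0.05 on the log2(FPKM + 1) scale in conditioned-medium replicates 1 to 4, and 0.05, -0.19, 0.10 and -0.27 in control replicates 1 to 4. The 4 conditioned-medium libraries were thus above control replicates 2 and 4, and replicate 4 was below control replicates 1 and 3. The other 3 genes, Hmgcs1, Fdft1 and Insig1, did not follow this order, and Fdft1 and Insig1 were lowest in control replicate 1. Within groups, 7 of the 8 genes had a smaller SD of log2(FPKM + 1) in conditioned than in control medium, Hmgcs1 being the exception, where 43.0% of all genes had.

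**Figure D2:**
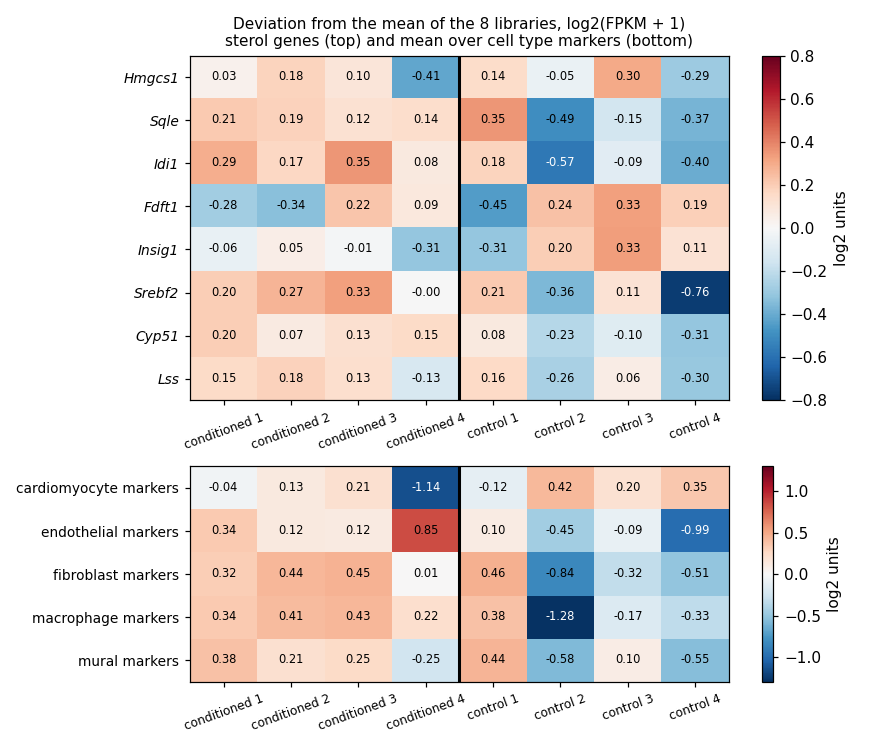
Deviation of each library (columns, conditioned medium left of the line, control medium right of it) from the mean of the 8 libraries on the log2(FPKM + 1) scale, for the 8 sterol genes (upper panel) and as the mean over 5 lists of cell type markers (lower panel), with red above and blue below the mean. Control replicates 2 and 4 are low for Idi1 (-0.57 and -0.40), Sqle, Srebf2, Cyp51 and Lss, and also for the endothelial, fibroblast, macrophage and mural markers.

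The same libraries were low in markers of other cells of the heart. The summed level of the 10 endothelial markers was 292, 244, 246 and 438 FPKM in conditioned-medium replicates 1 to 4, and 243, 161, 213 and 109 FPKM in control replicates 1 to 4. For the 9 measured of 12 macrophage markers the sums were 148 to 159 FPKM in conditioned medium, and 170, 22.0, 91.2 and 96.5 FPKM in control replicates 1 to 4, most of it from Lyz2. For the 8 fibroblast markers they were 43.3 to 51.8 FPKM in conditioned medium, and 49.5, 14.7, 25.5 and 21.7 FPKM in control replicates 1 to 4. Control replicate 3 also lay below every conditioned-medium library in the endothelial, macrophage and fibroblast sums. In the endothelial sum control replicate 1 did too, by a small margin, so the media did not overlap there. Of the 10 endothelial markers, 8 were higher and 0 lower unadjusted in limma, where 8.78% and 0.845% of all genes were. In 6 of the 10 every conditioned-medium library lay above every control library, as in 5.08% of all genes. The sums of the 8 mural markers went the other way, with a mean of 129 FPKM in conditioned and 155 FPKM in control medium. The lowest mural sum, 83.1 FPKM, was in conditioned-medium replicate 4, and control replicate 4 was at 145 FPKM. Of the endothelial and macrophage markers, 10 of 10 and 9 of 9 lay above 0 in log2 fold change (medians 0.72 and 0.57), and all 10 cardiomyocyte markers lay below 0 (median -0.40). All 8 fibroblast markers lay above 0 (median 0.42), of which Dcn, a matrix proteoglycan, passed the limma test, and 6 of 8 mural markers lay above 0 (median 0.48, none past the test). The part of these cells in the levels of the sterol genes was not tested.

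Control replicates 2 and 4 were the lowest libraries of 5 of the 8 genes, so leaving them out could only lower those fold changes. Without control replicates 2 and 4 together, the log2 fold changes were 0.18 for Idi1, 0.15 for Cyp51, 0.06 for Sqle, 0.04 for Srebf2, -0.02 for Lss, -0.02 for Fdft1, -0.09 for Insig1 and -0.25 for Hmgcs1. The median of the 8 genes was then 0.01, against -0.09 over all genes. Without conditioned-medium replicate 4 it was 0.26, against 0.12 over all genes. Control replicate 1 was the highest control library of Sqle, Idi1, Srebf2 and Cyp51, so leaving it out could only raise their fold changes. Without it, these 4 of the 8 genes had an unadjusted p under 0.05 in limma. All 4 were higher in conditioned medium, and 15.8% of all genes were higher at such a p. None passed after adjustment (limma adjusted p = 0.115, 0.133, 0.249 and 0.261), and 0.968% of all genes did.

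**Figure D3:**
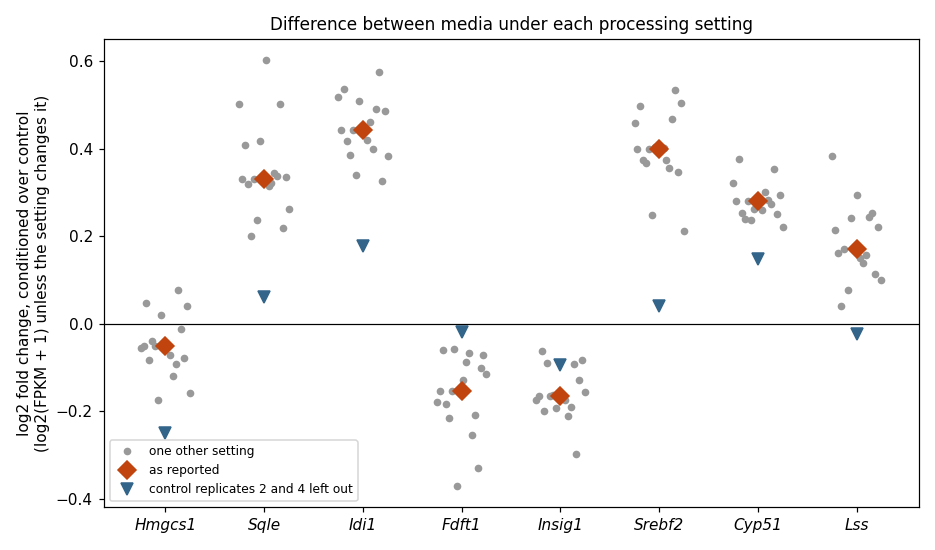
Log2 fold change of each sterol gene, conditioned over control medium, as reported (orange diamonds), under each of 18 other settings of scaling, filter, test or left-out library (grey points, 17 for Lss) and with control replicates 2 and 4 left out (blue triangles). Idi1, Sqle, Srebf2 and Cyp51 stay above 0 and Fdft1 and Insig1 below 0 under every setting drawn, while Hmgcs1 and Lss lie on both sides.

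The transcript table lists 12 transcripts of the 8 genes, 3 of Hmgcs1, 2 each of Sqle and Fdft1 and 1 of each other gene. None passed at an adjusted p under 0.05 with limma, where 0.0657% of all transcripts did, and none at an unadjusted p under 0.05, where 6.33% did. Idi1-201, with 5 exons, had the smallest adjusted p of them (0.778 from limma) and a log2 fold change of 0.45. The deposited value of a gene was not the sum of its listed transcripts. In conditioned-medium replicate 4 Lss was at 0.591 FPKM and Lss-201, its only listed transcript, at 0.0609 FPKM, while in conditioned-medium replicate 1 Lss was at 0.935 FPKM and Lss-201 at 1.55 FPKM.

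Within conditioned medium the transcripts of Sqle varied more between libraries than the gene value. Sqle-201 was at 1.33, 4.70, 0.772 and 1.91 FPKM in conditioned medium, against 2.47, 0.994, 1.13 and 1.06 FPKM in control medium. Sqle-202 was at 3.55, 0, 3.85 and 2.67 FPKM in conditioned medium, against 2.96, 1.12, 2.29 and 0.182 FPKM in control medium. The library with the highest Sqle-201, conditioned-medium replicate 2, was thus the library in which Sqle-202 was listed at 0. Hmgcs1-202 was the most abundant transcript of its gene in all 8 libraries, at 10.4 to 17.9 FPKM in conditioned medium and 10.7 to 18.3 FPKM in control medium. Hmgcs1-201 ran from 0.395 to 6.10 FPKM in conditioned medium and from 1.11 to 5.91 FPKM in control medium, and the short Hmgcs1-203, with 3 exons, stayed under 1 FPKM. Fdft1-204 was listed at 0 in conditioned-medium replicate 4, where Fdft1-201 had its highest value of 7.38 FPKM. No transcript of these 3 genes separated the media. Of all 12 transcripts, Cyp51-201 alone had every conditioned-medium library above every control library, by a small margin, as 3.3% of all transcripts had.

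**Figure D4:**
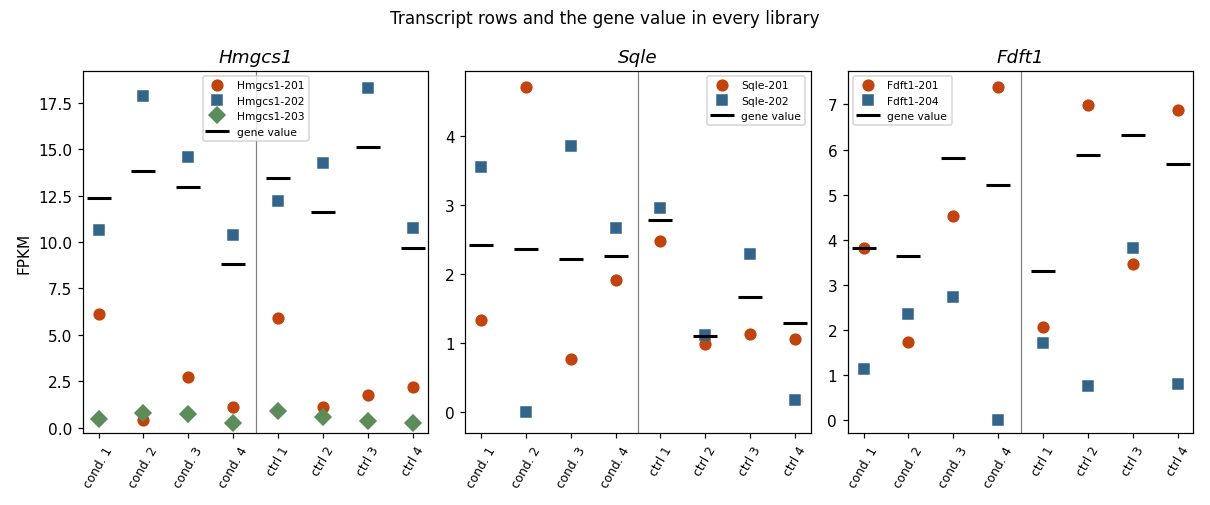
FPKM of each listed transcript of Hmgcs1, Sqle and Fdft1 (coloured signs) and of the gene (black dashes) in the conditioned-medium libraries (left of the line) and the control libraries (right of it). The transcripts of Sqle and Fdft1 exchange rank between libraries of 1 group, as in conditioned-medium replicate 2 with 4.70 FPKM for Sqle-201 and 0 for Sqle-202, while the gene value of Sqle in conditioned medium stays between 2.22 and 2.42 FPKM.

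Beyond the 8 genes, the rest of cholesterol synthesis gave small positive values without calls. Of 21 measured of 22 listed synthesis genes, none passed the limma test, 3 were higher before adjustment and 0 lower, and 19 lay above 0 with a median log2 fold change of 0.19. All 15 measured synthesis genes outside the 8 were positive. Of all genes, 8.78% were higher and 0.845% lower before adjustment, and 53.9% lay above 0. Msmo1, the methylsterol oxidase that follows Cyp51, had a log2 fold change of 0.49 (limma adjusted p = 0.42), and Erg28, an endoplasmic reticulum protein of the pathway known from yeast, had one of 0.30 (limma adjusted p = 0.563). Sc5d, a desaturase and the most abundant of the rest, had a log2 fold change of 0.18 (limma adjusted p = 0.746). Without control replicates 2 and 4 the median of the 21 genes was 0.04, and 12 of the 15 were positive. Over all genes the median was then -0.09, and 33.9% were positive.

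**Figure D5:**
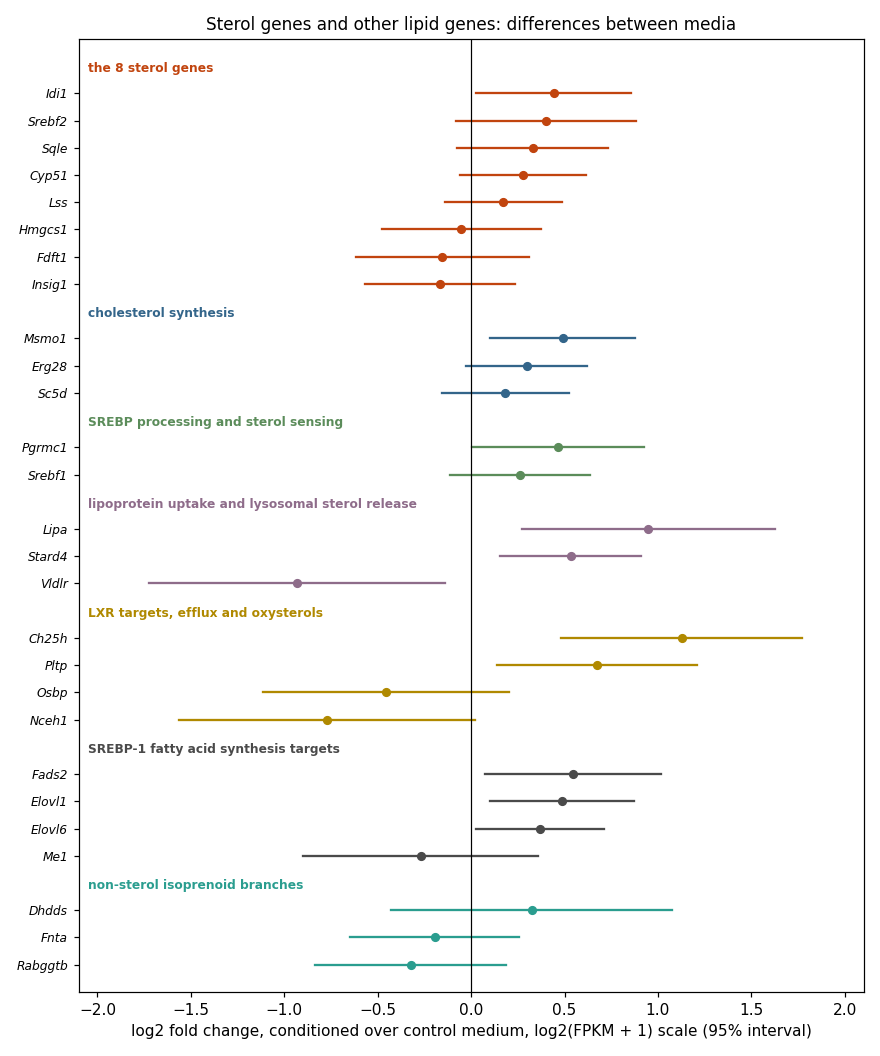
Log2 fold change on the log2(FPKM + 1) scale, conditioned over control medium, with its 95% interval from limma, for the 8 sterol genes and for genes named in the text from 6 lists of sterol and lipid metabolism. The interval of Idi1 (0.03 to 0.86) lies just above 0, those of the other 7 sterol genes include 0, and the widest differences belong to Ch25h (1.13), Lipa (0.95) and Vldlr (-0.93).

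The genes that process SREBP and sense sterols were also without calls. Of 15 measured of 16 listed, none passed the limma test, and the median log2 fold change came to 0.09. Before adjustment 1 was higher and 0 lower, where 8.78% and 0.845% of all genes were. Pgrmc1, a heme-binding membrane protein reported to bind INSIG1, was at 24.4 ± 0.993 FPKM in conditioned medium and 17.99 ± 5.97 FPKM in control medium (SD, n = 4 each), a log2 fold change of 0.47 (limma adjusted p = 0.517). Srebf1, the paralogue of Srebf2 that favours fatty acid synthesis, had a log2 fold change of 0.26 (limma adjusted p = 0.683).

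The list of lipoprotein uptake and lysosomal release of sterol held larger differences, and none passed. Of 13 measured of 14 listed genes, 4 were higher and 1 lower unadjusted in limma, and the median was 0.26. Of all genes, 8.78% were higher and 0.845% lower unadjusted. Of the 13, 3 had every conditioned-medium library above every control library and 1 had every one below. Of all genes, 5.08% and 1.46% did. Lipa, which encodes the lysosomal lipase that frees cholesterol from its esters, was at 29.8, 26.5, 25.5 and 60.7 FPKM in conditioned medium, against 24.2, 12.6, 22.0 and 11.7 FPKM in control medium. Every conditioned-medium library lay above every control library, and replicate 4 stood far above the other conditioned-medium libraries. Between media the log2 fold change was 0.95 (limma adjusted p = 0.357). Stard4, a cytosolic sterol carrier and SREBP target, was at 2.38 to 3.14 FPKM in conditioned medium and 1.11 to 2.29 FPKM in control medium, again without overlap, with a log2 fold change of 0.53 (limma adjusted p = 0.357). Vldlr, the receptor for triglyceride-rich particles, was at 9.17, 9.29, 9.22 and 1.85 FPKM in conditioned medium, against 12.2, 15.1, 13.4 and 12.2 FPKM in control medium. It was lower in all 4 conditioned-medium libraries than in any control library, and replicate 4 stood far below the other conditioned-medium libraries. The log2 fold change was -0.93 (limma adjusted p = 0.453).

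Among LXR targets and genes of sterol efflux and oxysterols, 14 of 15 listed genes were measured, and the median was 0.31. In limma 2 were higher and 0 lower unadjusted, where 8.78% and 0.845% of all genes were, and none passed after adjustment. Ch25h encodes cholesterol 25-hydroxylase, whose product holds SREBP in the endoplasmic reticulum and which interferons induce in macrophages. It was at 5.93, 7.67, 5.66 and 6.74 FPKM in conditioned medium, against 4.65, 2.16, 3.26 and 0.791 FPKM in control medium. The groups did not overlap, and its log2 fold change was 1.13 (standard error 0.30, unadjusted p = 0.00259, limma adjusted p = 0.206). Ch25h was the only gene of the 14 without overlap, where 5.08% of all genes lay higher and 1.46% lower without overlap. Pltp, a phospholipid transfer protein, had a log2 fold change of 0.67 with overlapping groups (limma adjusted p = 0.425). Nceh1, an esterase of cholesterol esters, had a log2 fold change of -0.77 (limma adjusted p = 0.544). Osbp, an oxysterol-binding carrier and the most abundant of the list, had one of -0.46 (limma adjusted p = 0.689). Conditioned-medium replicate 4 was the lowest library of both, at 4.99 and 17.4 FPKM.

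Of 16 measured SREBP-1 targets of fatty acid synthesis, none passed after adjustment in limma, and the median was 0.11. Unadjusted, 3 were higher and 0 lower, where 8.78% and 0.845% of all genes were. The 3 were Fads2, a desaturase, with 0.54, Elovl1, an elongase, with 0.49, and Elovl6, another elongase, with 0.37 (limma adjusted p = 0.458, 0.425 and 0.486). Me1, which supplies NADPH and was the most abundant of them, had a log2 fold change of -0.27 (limma adjusted p = 0.801). Of 12 measured genes of the non-sterol branches of the pathway, none was higher or lower at an unadjusted p under 0.05, and the median was 0.04. The smallest p value there belonged to Rabggtb, a prenyl transferase subunit and the most abundant, with -0.32 (limma adjusted p = 0.708). Next came Fnta, the shared alpha subunit of prenyl transferases, with -0.20, and Dhdds, of dolichol synthesis, with 0.32 (limma adjusted p = 0.799 and 0.80). Conditioned-medium replicate 4 was the lowest library of Rabggtb (23.4 FPKM) and Fnta (10.7 FPKM).

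Among 9989 other genes with a mean of at least 1 FPKM, the 5 whose standardised log2(FPKM + 1) profile over the 8 libraries was closest to the mean profile of the sterol genes were Mapkbp1, Inpp5b, Zfp710, Map3k3 and Sec24d, with root-mean-square differences of 0.17 to 0.198 SD, against a median of 0.96 over the genes compared. Sec24d, which encodes a coat subunit of the vesicles that leave the endoplasmic reticulum, was at 13.2, 12.9, 12.5 and 9.73 FPKM in conditioned medium, against 11.006, 8.41, 12.5 and 7.65 FPKM in control medium. As in 5 of the 8 sterol genes, control replicates 2 and 4 were its lowest libraries, which its choice by profile favours. Of the 8 genes, Srebf2 and Lss were closest to their common profile (0.276 and 0.307) and Insig1 and Fdft1 farthest from it (1.39 and 1.53).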

How the data were processed

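Read trimming by the authors used cutadapt and alignment to GRCm38 used HISAT2. They estimated transcript abundance by StringTie, and took FPKM of genes and transcripts, the deposited unit, from Ballgown. Neither tool versions, nor the annotation release, nor strand use in counting is stated in the sources read. Libraries were made from total RNA with a stranded kit. Each gene has a mean of at least 0.5 FPKM in 1 group, and 1 line per table is not reported here. Low FPKM were not whole multiples of 1 read (best mean cosine 0.11 to 0.242, where whole reads give 1).

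Media were compared in limma 3.58.1 (R 4.3.3) on log2(FPKM + 1), with an intensity trend and Benjamini-Hochberg adjustment over all genes, or over all transcripts. On simulated data for this comparison over 11367 genes, 73 of 100 genes changed by 1 on the log2 scale were recovered by limma, as were 95 of 100 changed by 2, and 5 unchanged genes were called, and the F test recovered 4 and 13 of 100.

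The genes, the lists and the tests were chosen with earlier results of these data known. Genes named are the 8 sterol genes, the 3 others of each list with the smallest p and its most abundant other, and the 5 genes with the most similar profile, and some of the genes this rule picks are not reported here. Alternatives were another pseudocount, a filter, 3 rescalings, no trend, the F test, array weights, a replicate block, summed transcripts and left-out libraries.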

Additional observations from a re-analysis of the deposited data

Results flagged for a closer look

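In a search of each gene and transcript for a library far from the other 3 of its group, which chance meets in about 1 in 20 groups, 2 of 40 groups stood out. Lss had its lowest conditioned-medium value, 0.591 FPKM, in replicate 4, where the other 3 were at 0.907 to 0.977 FPKM. Sqle-201 had its highest control value, 2.47 FPKM, in replicate 1, where the other 3 were at 0.994 to 1.13 FPKM.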

How the results depend on the processing

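FPKM carry no depth, and 4 libraries a group limit the precision. For all genes, limma called 63 higher and 0 lower after adjustment, where 96 were lower unadjusted. The F test called 0 higher, array weights 882 higher and 51 lower, and leaving out control replicates 2 and 4 together gave 2 higher and 1 lower. The lower calls were 1 with a pseudocount of 0.1, 1 with median-of-ratios factors, 2 with quantile normalization and 1 with summed transcripts. Leaving out 1 library gave 31 (without control replicate 2) to 110 (without control replicate 1) higher and 0 to 2 lower.

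Of the 8 sterol genes, 0 passed after adjustment, and 1 with array weights (Idi1, 0.51), where 8.21% of all genes passed. Unadjusted, 1 passed, against 3 with equal nuclear totals, 2 with median-of-ratios factors, 2 with quantile normalization, 2 in the F test, 5 with array weights, 0 with summed transcripts, 0 without control replicates 2 and 4, and 0 to 4 without 1 library. Of all genes, 8.78% were higher and 0.845% lower unadjusted as reported, and 17.3% passed unadjusted in the F test. Without control replicate 1, which gave the 4, 15.8% of all genes were higher. All genes shifted too, with 66.9% positive under equal nuclear totals and 74.7% under array weights, against 53.9% as reported. Unadjusted shares of all genes for the other settings are not reported here. Hmgcs1 changed sign to 0.048 with equal nuclear totals, 0.021 with array weights and, without 1 library, ran from -0.158 to 0.077. Lss changed sign to -0.024 without control replicates 2 and 4 and has no value with a minimum mean of 1 FPKM. The other 6 genes kept their sign under all 19 alternatives.

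The medians without control replicates 2 and 4 were 0.011 for the 8 genes, 0.039 for cholesterol synthesis, 0.049 for uptake and 0.056 for LXR targets, which had 0.13 in the F test and 0.12 to 0.39 without 1 library. The median of all genes, 0.02, moved to 0.12 with array weights, 0.12 without conditioned-medium replicate 4, 0.10 with equal nuclear totals and -0.09 without control replicates 2 and 4. The cause of these changes was not tested.

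The labels do not say whether the replicate numbers pair the libraries, and the main fit did not treat them as pairs. Of 4 same-number correlations of deviations, 1 was over 0.1 (0.05, 0.26, -0.18 and 0.06), which cannot decide the question. With a replicate block, 69 genes were higher, and 0 of the 8 passed after adjustment and 2 unadjusted.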
